A study of Mus musculus with 9 samples.

Results

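The nuclear genes of the mitochondrial respiratory chain and ATP synthase were described in poly(A) RNA of whole mouse eyes. They were taken as every gene whose symbol starts with Nduf, Sdha, Sdhb, Sdhc, Sdhd, Uqcr, Cox4, Cox5, Cox6, Cox7, Cox8 or Atp5, which held for 83 of the 13089 genes in the deposited tables. The study set 3 inbred strains side by side, A/J, BALB/c and C57BL/6J, which its design names as differing in the rate of retinal degeneration. C57BL/6J mice are pigmented, the other two strains albino. All mice were untreated wild-type females of 4 weeks per the labels, with 3 libraries per strain and the RNA of 5 mice pooled for each. Whether the 3 pools of a strain were separate is not in the labels, so p-values here cover only library-to-library spread, possibly technical. Levels are taken to be in RPKM, a unit inferred from the values. RPKM are reads scaled to the length of the gene and to the number of mapped reads, which allows levels of different genes to be compared. The depth of the libraries is unknown.

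Complexes I to IV pass electrons from NADH and succinate to oxygen. Of these, complexes I, III and IV pump protons across the inner mitochondrial membrane, and complex V, the ATP synthase, uses that gradient to make ATP. A few core subunits of each complex carry the catalytic centres, and many small accessory subunits surround them; some core subunits are encoded in mitochondrial DNA and the rest, like all genes described here, in the nucleus. In the eye, photoreceptors hold dense mitochondria in their inner segments, whereas mature lens fibre cells lose theirs.

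By textbook role, complex I had 37 of the 83 genes, complex II 4, complex III 7, complex IV 18 and complex V 16, and 77 were subunits. The other 6 were the complex I assembly factors Ndufaf1, Ndufaf2 and Atp5sl, the coupling factor gene Atp5s, Cox7a2l, which joins complexes into supercomplexes, and Cox4nb, which matched by name only and encodes no subunit. Ndufa4 was counted with complex IV, where its protein is now placed. None of the 13 subunits encoded in mitochondrial DNA was in the tables, so complexes I, III, IV and V were seen only through their nuclear genes. Testing required 1 RPKM in 3 or more libraries, which 82 members met. Atp5g2, with 2 such libraries, fell just outside, and Atp5g1 with 3 and Atp5l with 4 just inside. The 3 of Atp5g1 were those of C57BL/6J.

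All 14 lens markers and all 13 rod markers examined were in the tables and passed the same filter. Lens crystallins made up 48.9% to 50.1% of summed RPKM in BALB/c libraries, 29.6% to 43.9% in C57BL/6J ones and 42.2% to 45.1% in A/J ones, and the 83 members took 1.54% to 1.89%. C57BL/6J 3 and A/J 3 stood apart for the members. The members' median deviation from their mean over all libraries was -0.48 (log2) in C57BL/6J 3 and -0.26 in A/J 3, against -0.08 to 0.04 in the other A/J and C57BL/6J libraries and 0.23 to 0.37 in BALB/c. Results that rest on A/J 3 or C57BL/6J 3 are given with and without them.

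Some respiratory chain and ATP synthase genes had higher levels in eyes of BALB/c mice than in eyes of C57BL/6J mice. By limma on log2 scaled RPKM with Benjamini-Hochberg adjustment over all 12920 tested genes (called at an adjusted p under 0.05), 15 of the 82 tested members were higher in BALB/c and 0 lower, while 40 had an unadjusted p under 0.05. Among all tested genes, 1.91% were called higher, 1.15% lower and 3.07% in either direction. The 15 were Ndufa1, Ndufa3, Ndufab1, Ndufb7, Ndufb11, Ndufc1, Ndufs3 and Ndufs5 of complex I, Cox6a1, Cox6c and Cox7c of complex IV, and Atp5e, Atp5j2, Atp5l and Atp5o of complex V. The median log2 change of the members was 0.48, against -0.01 over all tested genes, and 68 of 82 members had a change above 0. In bulk RNA, fewer cells of a type and less RNA per cell cannot be told apart. On the deposited scale and with quantile normalization alike, 10 members were called higher and 1 lower, and with a trend on transcript length removed 4 were called higher and 2 lower, with a median of 0.18. The count also depended on single libraries. It was 6 without any 1 of the 3 BALB/c libraries, 8 without C57BL/6J 1 and 10 without A/J 1, and it was 35 (33 higher, 2 lower) without both A/J 3 and C57BL/6J 3, where 14.6% of all genes were called. Called in every one of the 9 omissions of a single library were 6 of the 15: Ndufa1, Ndufab1, Ndufc1, Ndufs5, Cox7c and Atp5l.

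Some members were also lower in A/J eyes than in BALB/c eyes. In A/J minus BALB/c, 10 of the 82 were called lower and 0 higher by limma, with 37 at an unadjusted p under 0.05, against 1.9% of all tested genes lower, 0.565% higher and 2.47% in either direction. These were Ndufa3, Ndufab1, Ndufb7, Ndufc1, Ndufs3, Ndufs5, Uqcr, Cox7c, Atp5e and Atp5l. The median change of the members was -0.42 against -0.01 for all tested genes. This comparison uses the same BALB/c libraries as the one above, so the values of both are given side by side and are not independent. With a trend on transcript length removed, 4 were called lower and the median was -0.05. Of the 10, only Atp5l and Ndufs5 were called in all 9 omissions. The count fell to 4 without A/J 1 or A/J 2, to 3 without BALB/c 1 or BALB/c 2 and to 2 without BALB/c 3. It rose to 20 without C57BL/6J 3, and without A/J 3 to 22 (20 lower, 2 higher), where 34.6% of all genes were called. Without both of these libraries it was 50 (40 lower, 10 higher), where 60.2% were called.

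Between A/J and C57BL/6J only 1 member passed the test. In A/J minus C57BL/6J, limma called 1 member lower, Cox4i2, and 0 higher, with 5 of 82 at an unadjusted p under 0.05, against 1.63% of all tested genes lower, 1.07% higher and 2.69% in either direction. The median change was 0.12 against -0.01. Without C57BL/6J 3 it was 0.008, the same as over all tested genes (0.008). Without A/J 3 the count was 4 (2 higher, 2 lower), where 28.2% of all genes were called, and with A/J 3 and C57BL/6J 3 left out it was 16 (10 higher, 6 lower), where 39.5% were. Without C57BL/6J 3 the single call was Cox6a2, lower in A/J, and the other 7 omissions gave 0. Across the 3 strains together, the F test called 13 members, against 4.46% of all genes. It called 35 without A/J 3 and 21 without C57BL/6J 3, 8 without A/J 1 and 5 without any 1 BALB/c library.

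**Figure D1:**
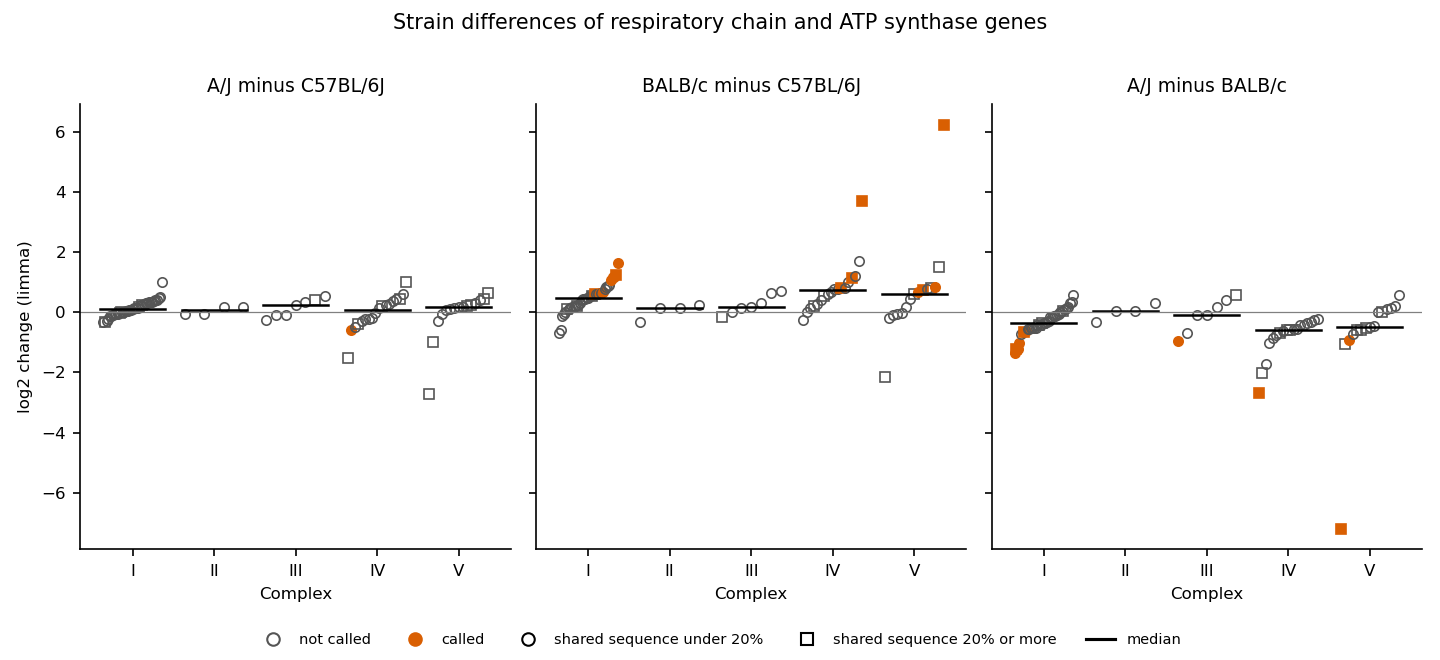
Log2 change (limma) of each tested member in the 3 strain comparisons, by complex. Each point is a gene, orange points are called at an adjusted p under 0.05, squares share at least 20% of their sequence with another annotated locus, and black lines are medians; the 15 orange points of BALB/c minus C57BL/6J all lie above 0, and the 10 of A/J minus BALB/c all lie below 0.

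Several of the called genes have near copies elsewhere in the genome, mostly processed pseudogenes, and reads from a copy cannot always be told from reads of the gene. For each gene, the share of 31-base stretches of its principal transcript that also occur at another annotated locus was computed. This share was at least 20% for 18 members and lower for 65. Just inside the limit were Atp5k (20.5%), Cox7a2l (23.3%) and Cox6a1 (23.8%), and just outside were Uqcr (19.5%), Ndufb11 (19.1%) and Ndufc1 (18.6%). Of the 17 tested members with a share of at least 20%, 7 were called higher in BALB/c than in C57BL/6J (Atp5l, Atp5o, Cox6a1, Cox6c, Cox7c, Ndufs3 and Ndufs5). Of the 65 others, 8 were called higher, and their median change was 0.42. By complex these were 6 of 32 in complex I, 0 of 13 in complex IV and 2 of 9 in complex V, with 0 of 4 in complex II and 0 of 6 in complex III. Among all 721 tested genes with a share of at least 20%, 84 were called higher in this comparison and 32 lower, while the 17 members gave 7 higher and 0 lower. Of the 11974 tested genes with a lower share, 156 were called higher and 114 lower.

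Atp5l encodes subunit g of the membrane part of ATP synthase, and 69.7% of its 31-base stretches occurred at other loci, 13 of which held at least 5% each. The first 150 coding bases are shown with those of copies to show how few bases separate them. Capitals mark mismatches to the gene. The gene lies at chr9:44912557-44920742 on the minus strand (GRCm38) and overlaps an exon of the antisense gene Gm30934. Atp5l2-ps at chr11:97768060-97768371 (plus strand, 99.4% identical over 312 bases) and Gm4853 at chrX:38396935-38397328 (plus strand, 97.1%) are processed pseudogenes that overlap no other annotated gene. A further copy, Gm10221 at chr5:24581554-24581862, is identical over its 309 bases.
Atp5l: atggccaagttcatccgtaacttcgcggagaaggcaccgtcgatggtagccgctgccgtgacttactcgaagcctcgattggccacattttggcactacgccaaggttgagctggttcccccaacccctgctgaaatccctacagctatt
Atp5l2-ps: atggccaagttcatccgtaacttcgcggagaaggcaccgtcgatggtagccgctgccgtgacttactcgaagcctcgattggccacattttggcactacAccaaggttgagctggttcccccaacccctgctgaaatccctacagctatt
Gm4853: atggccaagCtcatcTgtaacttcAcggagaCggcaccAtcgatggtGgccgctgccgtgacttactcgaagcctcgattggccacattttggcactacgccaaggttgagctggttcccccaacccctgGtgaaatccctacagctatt

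Atp5l was listed at 0 in all 3 A/J libraries, at 53.4, 83.1 and 75.5 RPKM in BALB/c, whereas C57BL/6J had 2.18, 0 and 0.28. Every BALB/c library was high and every other library was at or near 0, with no overlap. The gene was called in BALB/c minus C57BL/6J (adjusted p = 0.000227) and in A/J minus BALB/c (adjusted p = 0.000177). No fold is given, because libraries of both other strains were listed at 0 and the fitted change depends on the value added before taking logs. The gene passed the filter on low values through the 3 BALB/c libraries and 1 of C57BL/6J. It was not called between A/J and C57BL/6J (adjusted p = 0.321).

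Cox7c, a small structural subunit of cytochrome c oxidase, shared 55.7% of its 31-base stretches. Its gene lies at chr13:86044816-86046904 (minus strand), where it overlaps an exon of the unclassified gene Gm22574, the processed pseudogene Gm10012 at chr17:25901856-25902227 (plus strand, 99% identical over 192 coding bases) within introns of Rab40c and Gm26694, and an identical copy, Gm12338, at chr11:75599763-75599954 within an intron of Pitpna.
Cox7c: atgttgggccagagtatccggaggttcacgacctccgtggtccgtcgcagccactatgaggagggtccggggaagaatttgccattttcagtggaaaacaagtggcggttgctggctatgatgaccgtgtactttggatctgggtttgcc
Gm10012: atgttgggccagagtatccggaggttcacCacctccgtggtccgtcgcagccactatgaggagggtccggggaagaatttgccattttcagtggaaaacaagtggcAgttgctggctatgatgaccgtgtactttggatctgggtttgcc

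Levels of Cox7c were 13.4, 15.7 and 21.1 RPKM for BALB/c, 1.02, 2.22 and 0.22 for C57BL/6J and 1.57, 2.15 and 3.37 for A/J. All BALB/c libraries lay above all others, and A/J and C57BL/6J overlapped. It was called higher in BALB/c minus C57BL/6J (log2 change 3.68, SE 0.45, adjusted p = 0.00245) and lower in A/J minus BALB/c (log2 change -2.69, SE 0.45, adjusted p = 0.0147).

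Ndufs5 encodes an accessory subunit of complex I on the intermembrane side, and 47.3% of its stretches occurred elsewhere, all of them in the processed pseudogene BC002163. The gene lies at chr4:123712710-123718202 (minus strand) and BC002163 at chr16:42955631-42955949 (plus strand), within an intron of Zbtb20, with 99.4% identity over 319 bases.
Ndufs5: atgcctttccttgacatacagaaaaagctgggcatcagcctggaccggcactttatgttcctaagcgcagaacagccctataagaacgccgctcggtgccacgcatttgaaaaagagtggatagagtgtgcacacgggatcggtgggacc
BC002163: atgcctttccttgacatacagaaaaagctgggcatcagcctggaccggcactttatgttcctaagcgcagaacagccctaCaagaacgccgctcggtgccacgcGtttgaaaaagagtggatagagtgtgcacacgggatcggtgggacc

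Ndufs5 was at 33.5, 32.3 and 34.3 RPKM for BALB/c, 14.9, 15.7 and 16.2 for C57BL/6J and 13.7, 16.3 and 13.7 for A/J. The 3 BALB/c libraries were close together and far above the other 6. The gene was called in BALB/c minus C57BL/6J (log2 change 1.25, SE 0.12, adjusted p = 0.000582) and in A/J minus BALB/c (log2 change -1.24, SE 0.12, adjusted p = 0.00115). In both it was called in all 9 omissions and in each of the 13 other alternatives run for it, which do not include leaving out genes with shared sequence.

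Atp5g1, Atp5h, Cox5b and Uqcrb also shared much of their sequence and were not called. Atp5g1, Atp5g2 and Atp5g3 encode the same c-ring protein of the ATP synthase rotor, and Atp5g3, which shares no stretch, gave 91.4% to 99.8% of their summed level. Atp5g2 (87.7% shared) was at 0.79, 1.15 and 1.39 RPKM for BALB/c, 0.59, 0.36 and 0.77 for C57BL/6J and 0.5, 0.44 and 0.4 for A/J and was not tested. Atp5g1 (67.3%) was at 0.51, 0.39 and 0.47 RPKM for BALB/c, 1.68, 1.17 and 26.2 for C57BL/6J and 0.17, 0.22 and 0.08 for A/J. All its C57BL/6J libraries lay above the others, without a call (A/J minus C57BL/6J -2.72, adjusted p = 0.151). It passed the filter on low values only through C57BL/6J, the strain where it is high. Cox5b, a zinc-binding subunit of complex IV (32.7%), was at 0 to 4.36 RPKM in 8 libraries and at 18.0 in C57BL/6J 3. Its BALB/c libraries all lay above those of A/J, without a call (A/J minus BALB/c -2.04, adjusted p = 0.278). The partner subunit Cox5a was at 169, 139 and 141 RPKM for BALB/c, 128, 144 and 109 for C57BL/6J and 140.1, 149 and 105 for A/J, so Cox5b was listed far below the subunit it is assembled with. Uqcrb of complex III (54.3%) ranged from 17.0 to 61.4 RPKM, with overlap of all strains, and Atp5h, subunit d of the ATP synthase stalk (60.8%), was at 136, 112 and 122 RPKM for BALB/c, 82.5, 78.8 and 77.5 for C57BL/6J and 98.7, 102 and 61.2 for A/J. For Atp5h all BALB/c libraries lay above the others without a call (BALB/c minus C57BL/6J 0.80, adjusted p = 0.0894).

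**Figure D2:**
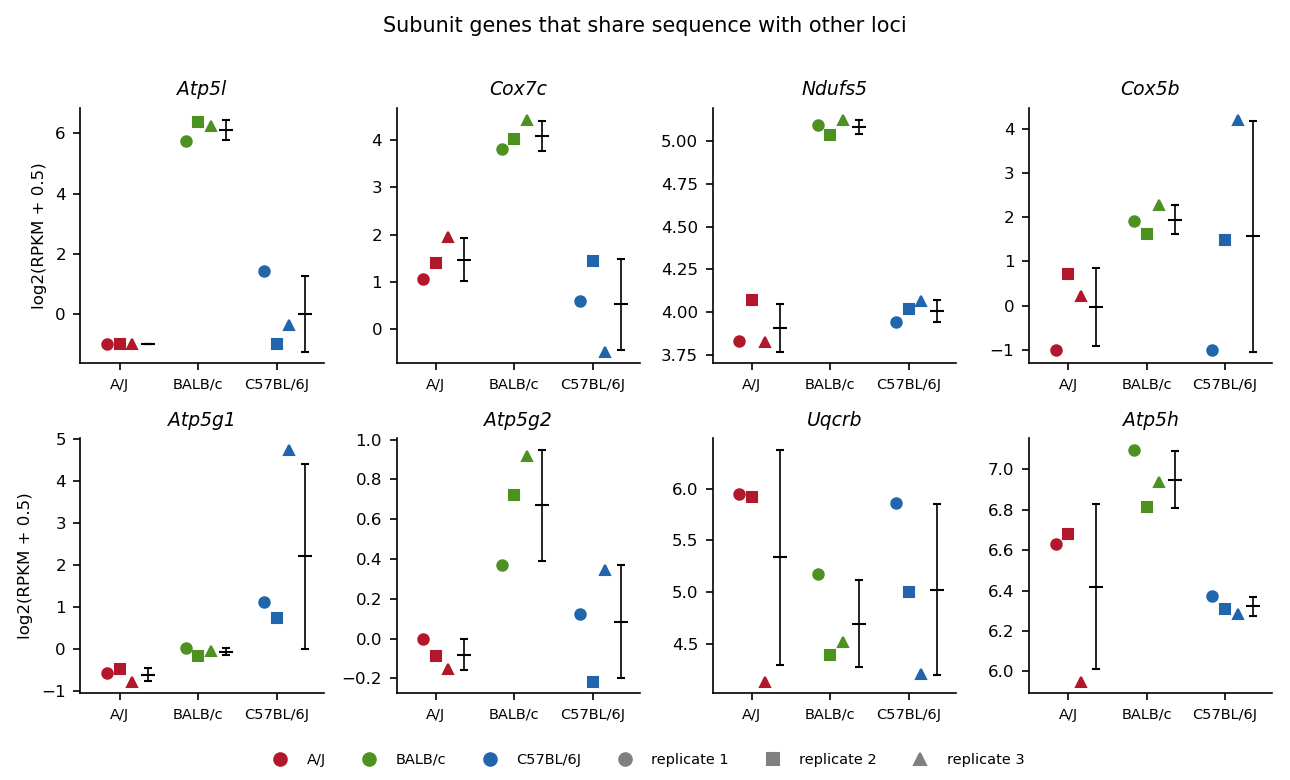
Level of 8 members that share sequence with other loci, as log2(RPKM + 0.5) in each library (points) with the mean and SD of each strain (bars, n = 3). Atp5l, Cox7c and Ndufs5 are separated with BALB/c on top. C57BL/6J 3 is far above the other libraries for Cox5b and Atp5g1. For Atp5g1 all C57BL/6J libraries lie above those of A/J and BALB/c. The vertical axes differ between panels.

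Ndufs3, a core subunit of the complex I arm that reaches into the matrix, also shared 49.3%, mostly with the pseudogene Gm12251. It was at 56.5, 48.6 and 52.6 RPKM for BALB/c, 38.6, 35.2 and 43.2 for C57BL/6J and 36.0, 36.9 and 32.2 for A/J, again with BALB/c above both other strains in every library. It was called in BALB/c minus C57BL/6J (log2 change 0.60, SE 0.12, adjusted p = 0.0298) and in A/J minus BALB/c (log2 change -0.65, SE 0.12, adjusted p = 0.0251). The other called genes of this class, Cox6a1 (liver-type subunit VIa), Cox6c and Atp5o (the oligomycin sensitivity protein of the ATP synthase stalk), were abundant. Cox6a1 was at 321 ± 9.83 RPKM for BALB/c, 208 ± 26.4 for C57BL/6J and 224 ± 23.5 for A/J (SD, n = 3), with a BALB/c minus C57BL/6J change of 0.81 (adjusted p = 0.0108). For Cox6c that change was 1.13 (adjusted p = 0.0306) and for Atp5o 0.75 (adjusted p = 0.0352). Both fell out of the calls on most omissions of 1 library, Cox6c in 5 of 9 and Atp5o in 8 of 9.

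The levels of the complexes were compared as the sum of scaled RPKM over their subunit genes, leaving out genes with shared sequence. For complex I (29 genes) the sums were 3436, 3082 and 3326 in BALB/c, 2527, 2621 and 2093 in C57BL/6J and 2668, 2756 and 2320 in A/J. All BALB/c libraries lay above the rest. For complex IV (13 genes) they were 2576, 2320 and 2443 in BALB/c, 1628, 1605 and 1170 in C57BL/6J and 1729, 1767 and 1422 in A/J, the widest gap of the 5 complexes. BALB/c was 1.67 times C57BL/6J for complex IV, 1.36 times for complex I, 1.26 times for complex III and 1.16 times for complex V. On the deposited scale these ratios were smaller, at 1.48, 1.21, 1.12 and 1.03 in the same order. Complex II, succinate dehydrogenase, overlapped between all strains (380 ± 17.1 in BALB/c, 370.3 ± 50.1 in C57BL/6J and 387 ± 51.9 in A/J, SD, n = 3), with a ratio of 1.02 that became 0.909 on the deposited scale. A/J to C57BL/6J ratios were 1.05 to 1.12, and on the deposited scale 0.971 to 1.04, below 1 for complexes I, II, III and V. No test was run on these sums.

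**Figure D3:**
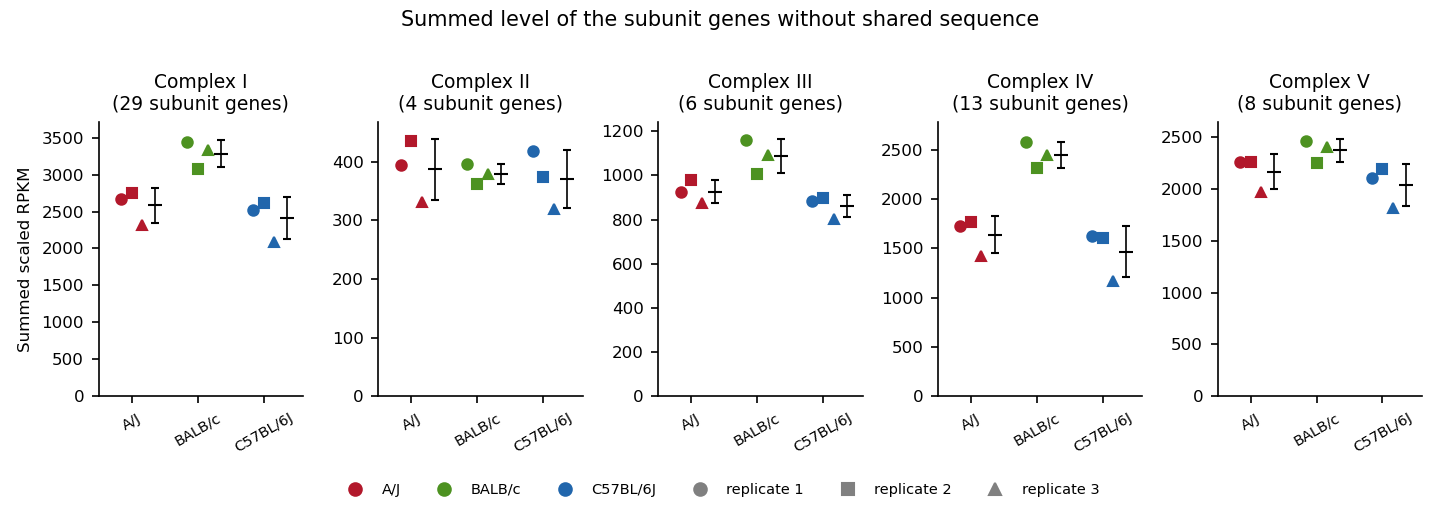
Sum of scaled RPKM over the subunit genes of each complex without shared sequence, per library (points), with the mean and SD of each strain (bars, n = 3). BALB/c libraries are highest for complexes I, III and IV, complex II overlaps between strains, and A/J 3 and C57BL/6J 3 are the lowest of their strain in all 5 panels.

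Among single subunits, Atp5b, the catalytic beta subunit of ATP synthase, had the highest level of all members, with a mean of 670.4 RPKM over the 9 libraries. Cox4i1 led complex IV with 447, Uqcrh complex III with 262, Ndufb9 complex I with 198 and Sdhb complex II with 114. The lowest of each complex were Sdhd with 74.4 (II), Uqcrb with 36.0 (III), Cox5b with 3.59 (IV), Ndufab1 with 2.89 (I) and Atp5g2 with 0.71 (V). Of these last genes, Uqcrb, Cox5b and Atp5g2 were among the members with shared sequence.

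In complex I, the BALB/c minus C57BL/6J changes ran from -0.69 (Ndufs1) to 1.65 (Ndufab1), and 33 of 37 were above 0. Its core subunits, which carry the flavin and iron-sulfur clusters, were mostly not called. Of the core catalytic genes of complexes I, II, III and V together, 2 of 19 tested were called higher in BALB/c than in C57BL/6J (Ndufs3 and Atp5e) and 0 lower by limma. The shares of all tested genes were 1.91% higher and 1.15% lower. The median change of the 19 was 0.15, and 3 higher and 2 lower had an unadjusted p under 0.05. Ndufv1, which binds NADH, was at 86.8, 92.4 and 95.1 RPKM for BALB/c, 112, 93.8 and 118 for C57BL/6J and 94.4, 92.3 and 101 for A/J, with all strains overlapping (BALB/c minus C57BL/6J -0.05, adjusted p = 0.92). Ndufs1, the largest core subunit, was at 32.9 to 76.3 RPKM in 8 libraries and at 137 in C57BL/6J 3. Its A/J minus C57BL/6J change was -0.12 (adjusted p = 0.829), and 0.51 (adjusted p = 0.023) without A/J 3 and C57BL/6J 3, the only change of direction with a call among the genes followed.

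Most of the called genes encode accessory subunits. Of 51 accessory genes, 13 were called higher in BALB/c than in C57BL/6J and 0 lower, against 1.91% and 1.15% of all tested genes. Their median change was 0.64, with 49 of 51 above 0. In A/J minus BALB/c, 8 of the 51 were called lower and 0 higher, against 1.9% and 0.565% of all tested genes. Their median there was -0.52. Of all 263 tested genes under 700 nt, 60 were called higher and 9 lower in BALB/c minus C57BL/6J, with a median of 0.55. Role and transcript length were not separated. Ndufa1, a small membrane subunit that is needed for complex I assembly, was at 217, 193 and 204 RPKM for BALB/c, 95.8, 129.6 and 108 for C57BL/6J and 143, 128 and 137 for A/J. The 3 BALB/c libraries lay above all others (BALB/c minus C57BL/6J log2 change 1.06, SE 0.15, adjusted p = 0.00574). In A/J minus BALB/c it was not called (adjusted p = 0.0639).

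Ndufa3, a membrane arm subunit, was at 131, 129.7 and 142 RPKM for BALB/c, 79.9, 72.6 and 52.3 for C57BL/6J and 63.2, 58.0 and 58.5 for A/J, with every BALB/c library above all others. Its changes were 1.17 against C57BL/6J (SE 0.19, adjusted p = 0.012) and -1.23 for A/J minus BALB/c (SE 0.19, adjusted p = 0.0115). Ndufc1, also of the membrane arm, was at 146, 118 and 138 RPKM for BALB/c, 55.5, 77.7 and 68.0 for C57BL/6J and 68.3, 68.6 and 67.3 for A/J. BALB/c lay above both other strains without overlap (BALB/c minus C57BL/6J log2 change 1.18, SE 0.16, adjusted p = 0.00414, A/J minus BALB/c log2 change -1.03, SE 0.16, adjusted p = 0.00957). Ndufab1, the mitochondrial acyl carrier protein, which serves both complex I and fatty acid synthesis, was low at 4.10, 5.67 and 6.07 RPKM for BALB/c, 1.05, 1.82 and 1.80 for C57BL/6J and 1.93, 1.71 and 1.89 for A/J, and was separated in the same way (BALB/c minus C57BL/6J log2 change 1.65, SE 0.20, adjusted p = 0.00231). Ndufab1 shared 13.2% of the stretches of its 3479 nt principal transcript, mainly with Gm4459 (407 stretches) and Ndufab1-ps (368). In number these exceed the 279 that Atp5l shared with Gm10221.

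Ndufb7 was at 125 ± 4.07 RPKM for BALB/c, 90.3 ± 13.7 for C57BL/6J and 85.4 ± 6.39 for A/J (SD, n = 3), with changes of 0.66 (adjusted p = 0.016) in BALB/c minus C57BL/6J and -0.62 (adjusted p = 0.0256) in A/J minus BALB/c. Ndufb11 was at 138 ± 14.0 RPKM for BALB/c, 101 ± 13.0 for C57BL/6J and 96.8 ± 4.06 for A/J and was called only against C57BL/6J (0.63, adjusted p = 0.0335), with -0.57 (adjusted p = 0.0557) in A/J minus BALB/c. Both encode membrane arm subunits, and both calls were lost on the deposited scale (adjusted p = 0.11 and 0.128 in BALB/c minus C57BL/6J). Ndufb9, the most abundant complex I gene, overlapped between all strains at 229, 178 and 204 RPKM for BALB/c, 199, 201 and 200.3 for C57BL/6J and 194, 211 and 168 for A/J (BALB/c minus C57BL/6J 0.20, adjusted p = 0.645).

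**Figure D4:**
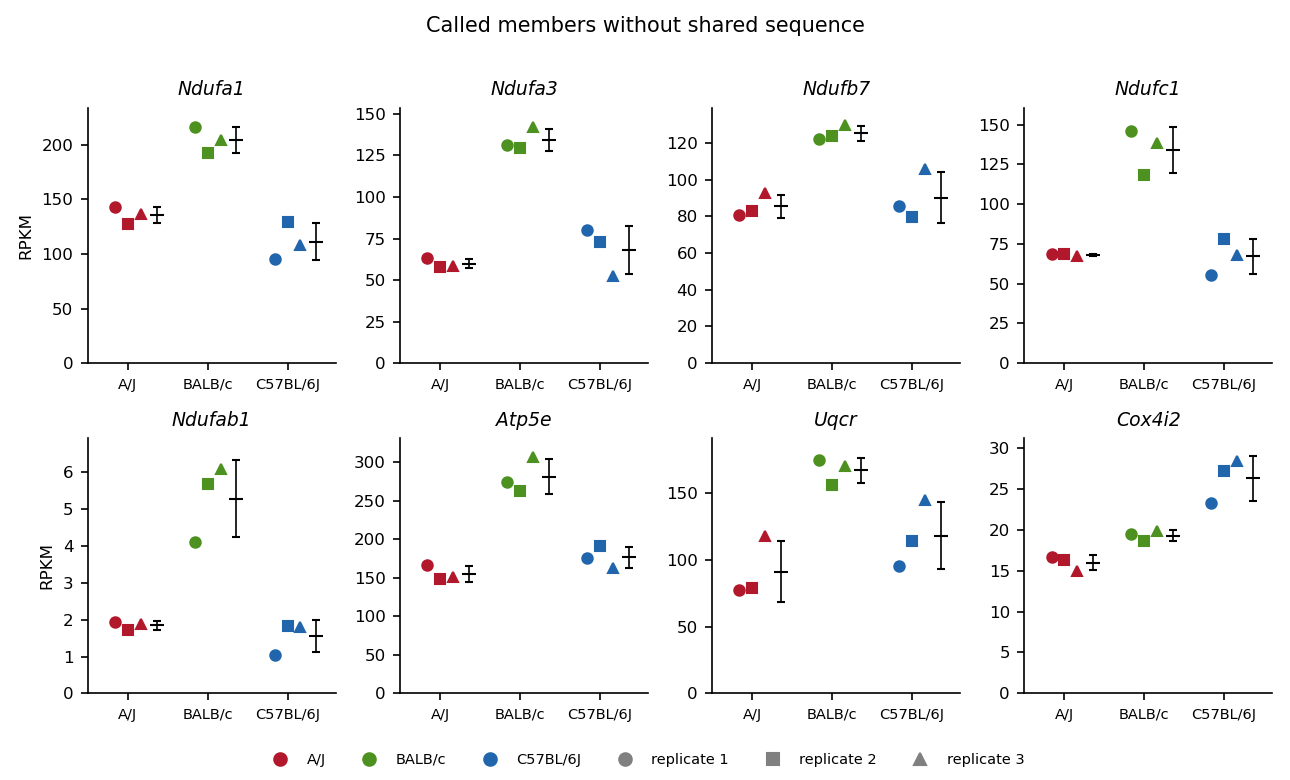
RPKM of 8 called members with under 20% shared sequence, per library (points), with the mean and SD of each strain (bars, n = 3). BALB/c is highest without overlap for Ndufa1, Ndufa3, Ndufb7, Ndufc1, Ndufab1, Atp5e and Uqcr, whereas Cox4i2 is highest in C57BL/6J and lowest in A/J.

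Complex II, whose 4 genes are all nuclear, gave no call by limma in any comparison, and only Sdhc, a membrane anchor, had an unadjusted p under 0.05, in A/J minus BALB/c. Sdha, the flavoprotein that oxidises succinate, was at 85.4, 78.1 and 80.0 RPKM for BALB/c, 136, 107 and 107 for C57BL/6J and 112, 122 and 82.3 for A/J, with A/J spanning the other strains (BALB/c minus C57BL/6J -0.34, adjusted p = 0.493). Sdhb, the iron-sulfur subunit, was at 113, 105 and 112 RPKM for BALB/c, 125, 104 and 110.0 for C57BL/6J and 123, 137 and 98.2 for A/J, and Sdhd at 80.4, 65.3 and 70.7 RPKM for BALB/c, 80.4, 72.4 and 67.7 for C57BL/6J and 73.9, 86.0 and 72.5 for A/J. All strains overlapped for both.

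Complex III, the cytochrome bc1 complex, had BALB/c minus C57BL/6J changes from -0.15 (Uqcrb) to 0.70 (Uqcr) and 1 call in all, Uqcr, a small subunit, in A/J minus BALB/c. It was at 175, 156 and 170.4 RPKM for BALB/c, 95.1, 114 and 145 for C57BL/6J and 77.1, 78.7 and 118 for A/J, and all BALB/c libraries exceeded the others (log2 change -0.96, SE 0.18, adjusted p = 0.0291). A/J 3 was the highest A/J library, and omitting A/J 1, A/J 2, C57BL/6J 2 or any BALB/c library ended the call. Uqcrq, another small subunit, showed the same order at 238 ± 13.9 RPKM for BALB/c, 177 ± 39.0 for C57BL/6J and 155 ± 34.7 for A/J (SD, n = 3) with no call (A/J minus BALB/c -0.71, adjusted p = 0.105). The Rieske iron-sulfur gene Uqcrfs1 was at 94.8, 73.8 and 84.3 RPKM for BALB/c, 99.1, 87.4 and 68.3 for C57BL/6J and 97.3, 117 and 83.3 for A/J and the core protein gene Uqcrc1 at 165, 169.8 and 178 RPKM for BALB/c, 194, 184 and 202 for C57BL/6J and 155, 162 and 187 for A/J. Uqcrfs1 overlapped between all strains, and neither gene was called in any comparison.

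In complex IV, cytochrome c oxidase, 16 of 18 members had a BALB/c minus C57BL/6J change above 0 and 18 of 18 an A/J minus BALB/c change below 0, with medians of 0.72 and -0.60. Calls were 3 and 1, and none of the 13 without shared sequence was called in these 2 comparisons by limma, although 8 and 7 had an unadjusted p under 0.05. Cox4i1, the ubiquitous form of subunit 4, was at 497, 523 and 544 RPKM for BALB/c, 489, 387 and 311 for C57BL/6J and 435, 446 and 391 for A/J. BALB/c lay above the other strains in every library, by a small margin over C57BL/6J 1, and was not called (0.60, adjusted p = 0.182 against C57BL/6J). Cox8a was at 440.3, 418 and 456 RPKM for BALB/c, 209, 291 and 392 for C57BL/6J and 204, 183 and 312 for A/J, also with BALB/c on top and no call (A/J minus BALB/c -1.02, adjusted p = 0.0639). Ndufa4 was at 634, 465 and 525 RPKM for BALB/c, 321, 370.2 and 234 for C57BL/6J and 426, 425 and 304 for A/J, and its A/J minus BALB/c change was -0.57 (adjusted p = 0.233).

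Several complex IV subunits exist in tissue-specific forms. Cox4i2, the form of subunit 4 known from lung and low oxygen, was the only member called between A/J and C57BL/6J. It was at 19.5, 18.6 and 19.8 RPKM for BALB/c, 23.2, 27.1 and 28.4 for C57BL/6J and 16.7, 16.3 and 14.9 for A/J. A/J libraries were all below and C57BL/6J libraries all above those of BALB/c (A/J minus C57BL/6J log2 change -0.59, SE 0.12, adjusted p = 0.0381). The call was kept in 1 of the 9 omissions, that of A/J 3 (adjusted p from 0.0215 to 0.137 over the 9), and was lost when a trend with GC content was removed (0.329) and when only these 2 strains were fitted (0.25). Across the 82 members, the Spearman correlation of this comparison's change with transcript GC content was -0.46, a description over genes measured in the same libraries. As a share of both subunit 4 genes, Cox4i2 made up 3.57% ± 0.177 in BALB/c, 6.49% ± 1.93 in C57BL/6J and 3.63% ± 0.093 in A/J (SD, n = 3), with 8.39% in C57BL/6J 3.

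Cox6a2, Cox7a1 and Cox8b encode the forms of heart and skeletal muscle. Cox8b was at 98.3, 88.3 and 88.6 RPKM for BALB/c, 56.8, 40.0 and 13.9 for C57BL/6J and 29.0, 35.6 and 23.0 for A/J. Its 3 BALB/c libraries were alike and above all others, C57BL/6J spread from 13.9 to 56.8, and it was not called (BALB/c minus C57BL/6J 1.69, adjusted p = 0.108, A/J minus BALB/c -1.72, adjusted p = 0.104). Cox6a2 was at 36.7, 33.2 and 32.6 RPKM for BALB/c, 37.9, 37.5 and 22.6 for C57BL/6J and 19.3, 24.7 and 19.3 for A/J and Cox7a1 at 29.6, 19.9 and 20.2 RPKM for BALB/c, 22.1, 15.9 and 11.8 for C57BL/6J and 12.4, 16.3 and 10.4 for A/J, without a call in any comparison. Striated muscle markers were present in all libraries, 27 of 29 in the tables and none at 0. Their summed scaled level was 2120 to 2749 in BALB/c, 2594 to 3021 in C57BL/6J and 2317 to 3449 in A/J, and 3 of 27 (Actn3, Mb and Tnni1) were called lower in BALB/c than in C57BL/6J. Of all tested genes, 1.15% were called lower in that comparison. The part of muscle cells and of transcript length (360 nt) in the level of Cox8b was not tested. Cox6b2, the testis form, was at 6.21 to 11.4 RPKM and Ndufa4l2, a low-oxygen paralogue of Ndufa4, at 4.95 to 8.44. Neither was called. Cox7a2l ranged from 46.0 to 114 RPKM, with C57BL/6J 3 the highest, and Cox7a2, the liver-type form, was at 162 ± 12.6 RPKM for BALB/c, 108 ± 23.7 for C57BL/6J and 129 ± 33.3 for A/J (SD, n = 3). They were not called either, nor was Cox6b1 at 204 ± 9.11 RPKM for BALB/c, 135 ± 42.9 for C57BL/6J and 148 ± 38.6 for A/J.

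In ATP synthase, 10 of 15 tested members had a BALB/c minus C57BL/6J change above 0, with a median of 0.61, or 0.16 for the 9 without shared sequence. Atp5e, the epsilon subunit of the central stalk, was called in both comparisons with BALB/c. It was at 274, 263 and 307 RPKM for BALB/c, 176, 191 and 163 for C57BL/6J and 167, 148 and 151 for A/J, with every BALB/c library above all others (BALB/c minus C57BL/6J log2 change 0.85, SE 0.14, adjusted p = 0.0136, A/J minus BALB/c log2 change -0.92, SE 0.14, adjusted p = 0.0106). Atp5j2, subunit f of the membrane part, was at 231 ± 29.0 RPKM for BALB/c, 165 ± 15.6 for C57BL/6J and 173 ± 13.4 for A/J (SD, n = 3) and called only against C57BL/6J (0.66, adjusted p = 0.0479), a call kept in 1 of 9 omissions. The alpha and beta genes of the catalytic head were not called. Atp5a1, the alpha subunit, was at 324, 303 and 317 RPKM for BALB/c, 378, 351 and 376 for C57BL/6J and 356, 379.7 and 330.1 for A/J and Atp5b at 612, 589.7 and 616 RPKM for BALB/c, 729.7, 710.4 and 658 for C57BL/6J and 718, 736 and 663 for A/J. For both, the BALB/c libraries were the lowest on the deposited scale, while the fitted changes against C57BL/6J were near 0 after scaling, -0.05 (adjusted p = 0.926) and -0.03 (adjusted p = 0.965). Atp5g3, the main c-ring gene, was at 385, 289 and 325 RPKM for BALB/c, 344, 378 and 286 for C57BL/6J and 378, 379 and 297 for A/J, with all strains overlapping. Atp5k, subunit e, which sits beside subunit g in the membrane, was at 199, 187 and 228 RPKM for BALB/c, 104, 109 and 47.9 for C57BL/6J and 128, 104 and 82.8 for A/J. BALB/c exceeded the rest in every library, and the change against C57BL/6J missed the threshold (1.49, adjusted p = 0.0554).

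The difference between BALB/c and the other strains went with transcript length, among the members and among all genes. Of 34 tested members with transcripts under 700 nt, 10 were called higher in BALB/c than in C57BL/6J, with a median change of 0.73, and 8 stood lower in A/J (a call in A/J minus BALB/c), with a median of -0.60. Of 23 members of 1200 nt or more, 1 was called in each comparison, with medians of 0.13 and 0.11. This was Ndufab1, at 1.05 to 6.07 RPKM, whose principal transcript of 3479 nt shared 13.2% of its stretches with other loci. Over all tested genes under 700 nt, the medians were 0.55 and -0.52, and 60 of 263 were called higher in BALB/c than in C57BL/6J and 9 lower. In A/J minus BALB/c, 58 of these 263 were called lower and 1 higher. Across the 82 members the Spearman correlation of change with length was -0.54 for BALB/c minus C57BL/6J and 0.66 for A/J minus BALB/c, over genes that share the same libraries. With a smooth trend on length removed in each library, the calls given above were 6 and 4, against 2.82% and 1.86% of all genes. Those of the first 15 that remained were Atp5l, Cox7c, Ndufab1 and Ndufs5, and 4 of the 10 remained in A/J minus BALB/c.

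**Figure D5:**
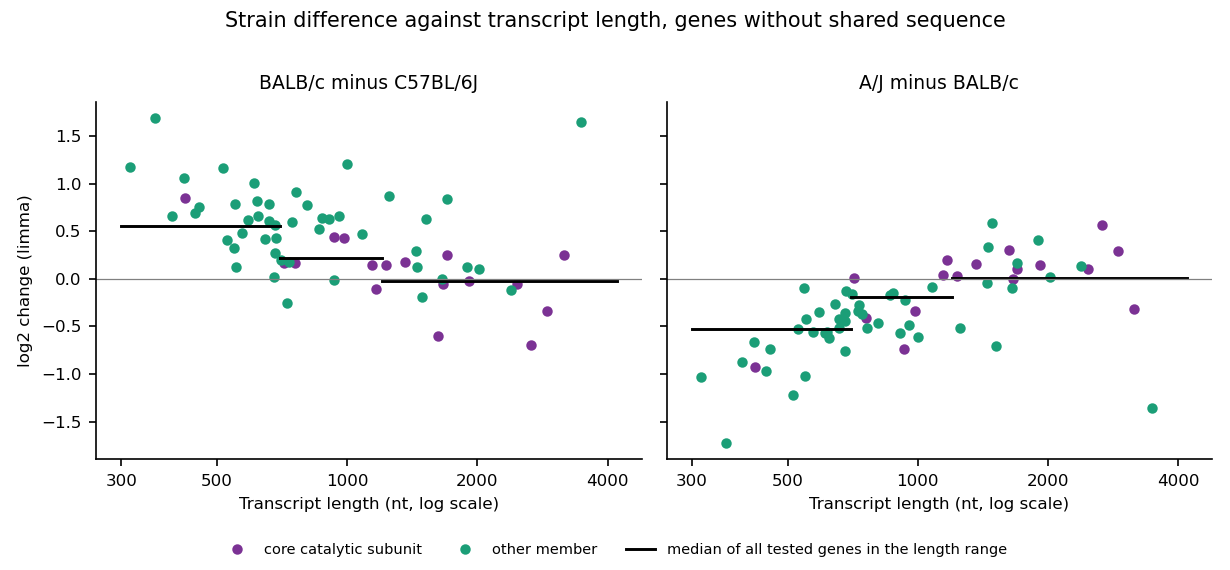
Log2 change (limma) of members with under 20% shared sequence against the length of their principal transcript (log axis), for BALB/c minus C57BL/6J and A/J minus BALB/c. Purple points are core catalytic subunits and green points the other members, and black bars give the median of all tested genes under 700 nt, from 700 to 1200 nt and above; short members lie near the shifted median of short genes, and long members lie around 0.

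Markers of other cell types moved in part with the strains. The summed scaled level of the 14 lens markers was 185600 to 200900 in BALB/c, 96990 to 149200 in C57BL/6J and 147100 to 162100 in A/J. It was highest in BALB/c and lowest in C57BL/6J 3, as the members' median deviation was. Within A/J they differed. The lens sum was 157500 in A/J 3 and 147100 in A/J 2, where the members' median deviations were -0.26 and 0.04. By limma 0 of 14 were called in any comparison, with 8 at an unadjusted p under 0.05 in BALB/c minus C57BL/6J, 4 in A/J minus C57BL/6J and 5 in A/J minus BALB/c. The 13 rod markers summed to 17540 to 18410 in BALB/c, 16370 to 17130 in C57BL/6J and 15160 to 15490 in A/J. By limma 1 of the 13, Sag, was called, higher in A/J than in C57BL/6J, with a log2 change of 1.11. Of all tested genes, 1.07% were called higher there. The median change of the 13 in that comparison was -0.28, with 4 above 0, and 1 higher and 4 lower had an unadjusted p under 0.05. In BALB/c minus C57BL/6J these were 2 higher and 0 lower, and in A/J minus BALB/c 1 higher and 7 lower. The part of lens and rods in the members' differences was not tested.

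Of 8 cone markers, Pde6c was called lower in both albino strains than in C57BL/6J, with changes of -3.06 for BALB/c and -2.16 for A/J. Of all tested genes, 1.15% were called lower in BALB/c minus C57BL/6J and 1.63% in A/J minus C57BL/6J. Of 7 markers of corneal and conjunctival epithelium, Krt4, Krt13 and Krt15 were called lower in both than in C57BL/6J, and Krt13 and Krt15 also in A/J minus BALB/c. The other 4 were not called, among them Krt12, with changes of 0.57 (adjusted p = 0.234) for BALB/c and 0.62 (adjusted p = 0.19) for A/J against C57BL/6J. The summed scaled level of the 7 overlapped between strains, at 5397 to 6539 in BALB/c, 4237 to 6048 in C57BL/6J and 4736 to 6035 in A/J. No marker was called by limma among the 5 of retinal pigment epithelium in the tables or the 3 of blood that were tested, while 2 pigment epithelium markers and 0 blood markers had an unadjusted p under 0.05 in A/J minus C57BL/6J and likewise in A/J minus BALB/c, and none of either in BALB/c minus C57BL/6J.

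Promoters were examined for binding motifs of factors known to act on respiratory chain genes. RefSeq promoter windows, from 250 bases before to 50 after the start (GRCm38.p6), were matched for 68 of the 83 members. The palindromic NRF1 motif, on either strand, was in 4 of the 68 (Atp5g2, Atp5k, Cox6a1 and Uqcrc1), or 5.88%, against 1.07% of 27025 genes. Its first bases alone, GCGCATGC, which lie within it, were in 13.2% against 3.05%. The YY1 motif was in 7.35% against 0.755%, the GABPA motif ACTTCCGG in 7.35% against 4.31%, and the ERRA motif TCAAGGTCA in 2.94% against 0.466%. Of the 15 members called higher in BALB/c than in C57BL/6J, 14 had a window. The palindromic and the shorter NRF1 motif were in 1 and 2 of these, GABPA in 1, and YY1 and ERRA in 0. The promoter of Cox6a1, the called gene with the palindromic motif, is shown for chr5:115348959-115349208 (minus strand), the 250 bases before its start, with that motif in capitals.
Cox6a1 promoter: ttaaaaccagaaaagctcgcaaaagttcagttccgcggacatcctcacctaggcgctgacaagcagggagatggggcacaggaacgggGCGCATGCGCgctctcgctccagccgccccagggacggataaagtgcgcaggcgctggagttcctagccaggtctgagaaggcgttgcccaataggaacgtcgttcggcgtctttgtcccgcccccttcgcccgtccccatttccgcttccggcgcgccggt

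Other mitochondrial genes were examined as lists. Of 11 further chain components, Usmg5, a small ATP synthase membrane subunit, was called. It was at 66.5, 56.8 and 59.2 RPKM for BALB/c, 2.07, 15.3 and 8.43 for C57BL/6J and 2.90, 2.06 and 12.9 for A/J, a pattern like that of Atp5l, with BALB/c far above the rest (BALB/c minus C57BL/6J log2 change 3.27, SE 0.72, adjusted p = 0.0464), and it shared 44.0% of its stretches with other loci. Cycs, the somatic cytochrome c gene (32.0% shared), was at 0.69 to 2.47 RPKM, far below Cyc1, its electron donor in complex III, at 119 to 183. The other 10 of this list were not called in any comparison. The shares of all tested genes were 3.07% in BALB/c minus C57BL/6J and 2.47% in A/J minus BALB/c.

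Of 25 assembly factors tested, 1 was called in each comparison with C57BL/6J and 3 in A/J minus BALB/c. The shares of all tested genes were 2.69% in A/J minus C57BL/6J, 3.07% in BALB/c minus C57BL/6J and 2.47% in A/J minus BALB/c. Cox18, an insertase for a complex IV core subunit, was higher in BALB/c at 8.44 ± 0.205 RPKM for BALB/c, 5.55 ± 1.36 for C57BL/6J and 4.78 ± 0.555 for A/J (SD, n = 3, BALB/c minus C57BL/6J 0.75, adjusted p = 0.027, A/J minus BALB/c -0.83, adjusted p = 0.0192). Lyrm7, a complex III assembly factor, was low in A/J at 2.18, 1.51 and 1.80 RPKM for BALB/c, 2.80, 1.83 and 1.61 for C57BL/6J and 0.71, 0.68 and 0.63 for A/J, below every library of the other strains (A/J minus C57BL/6J log2 change -1.03, SE 0.20, adjusted p = 0.0286). Atpaf1, an assembly factor of the F1 head (35.4% shared), was called lower in A/J minus BALB/c (-0.93, adjusted p = 0.0497). Its levels were low, at 1.51, 1.90 and 1.76 RPKM for BALB/c and 0.51, 0.68 and 1.01 for A/J.

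The enzymes of the tricarboxylic acid cycle and pyruvate dehydrogenase, which feed electrons to the chain, gave no call among 17 genes in any comparison by limma, with 1 unadjusted p under 0.05, in A/J minus BALB/c. Their median change was 0.04 in BALB/c minus C57BL/6J and 0.21 in A/J minus BALB/c, where the members' medians were 0.48 and -0.42. For the members of 1200 nt or more the medians were 0.125 and 0.105. The cycle genes and the members were not matched for transcript length. Of 16 carriers and import receptors, 3 were called higher in BALB/c than in C57BL/6J, against 1.91% of all tested genes. The same 3 were called lower in A/J minus BALB/c, against 1.9% of all tested genes. These were Slc25a5, an ADP/ATP carrier (0.73, adjusted p = 0.00793 in BALB/c minus C57BL/6J, 67.1% shared), Tomm20 (0.79, adjusted p = 0.0344) and Timm23 (1.29, adjusted p = 0.0392, 92.7% shared). Timm23 reached 1 RPKM only in the 3 BALB/c libraries and so passed the filter on low values through the strain where it is high.

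Of 16 regulators of mitochondrial genes, Ppargc1b, a coactivator of respiratory chain genes, was called higher in BALB/c than in C57BL/6J, at 15.6, 15.8 and 17.3 RPKM for BALB/c, 6.66, 8.94 and 9.84 for C57BL/6J and 9.66, 11.6 and 14.6 for A/J (log2 change 1.08, SE 0.17, adjusted p = 0.01). Ppara, a receptor that drives fatty acid oxidation genes, was lower in BALB/c at 0.82, 0.75 and 0.68 RPKM for BALB/c, 2.80, 2.74 and 6.90 for C57BL/6J and 2.84, 2.77 and 3.66 for A/J (BALB/c minus C57BL/6J log2 change -1.65, SE 0.26, adjusted p = 0.00937, A/J minus BALB/c log2 change 1.48, SE 0.26, adjusted p = 0.0195). The other 14 regulators gave no call in any comparison. Of all tested genes, 1.91% were called higher and 1.15% lower in BALB/c minus C57BL/6J, and 0.565% higher in A/J minus BALB/c.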

How the data were processed

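Gene levels came from 9 tables that the authors deposited, 1 per library, as RPKM. The column header names no unit, and RPKM was inferred from the values. Value times transcript length summed to 109% of the total expected for RPKM in C57BL/6J 3. In the other libraries it was 93.5% to 96.5%. The submitters' processing notes name CASAVA 1.7, GenomeStudio and mm9. No label or header gives the counting rule or its use of strand, so overlapping and antisense genes cannot be told apart. Depth is unknown.

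RPKM were divided by a median-of-ratios factor per library (0.932 to 1.16) and taken as log2(value + 0.5), so fold changes of low genes are understated. Of 13089 genes, 12920 reached 1 RPKM in at least 3 libraries and were fitted with limma 3.58.1 in R 4.3.3, with strain as the only term over all 9 libraries, a mean-variance trend and robust moderation. Tests were two-sided, Benjamini-Hochberg adjusted over all tested genes, and called at an adjusted p under 0.05. The fit was tested on simulated data.

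Shared sequence, length and GC content came from GENCODE transcripts on GRCm38, a build other than that of the files, for 98.2% of genes. Copies at loci without annotation were not seen. Promoters came from RefSeq.

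The members and lists were chosen with earlier results of these data known. Named genes were the called members (at most the 10 with the smallest adjusted p in a direction), the 8 with most shared sequence, the highest and lowest of each complex, reference subunits, paralogues, members beside the low-value limit, and at most 3 called genes of each other list. The other members given with values, the use of the principal transcript, the length ranges and the sequences shown were chosen after their values were seen. Alternatives tried were other scalings, pseudocounts and filters, GC and length corrections, a replicate block, 2-strain fits and omission of libraries. The values of 1 member are not reported here.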

Additional observations from a re-analysis of the deposited data

How the results depend on the processing

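The members' median change kept its sign in BALB/c minus C57BL/6J over every omission of 1 library (0.38 to 0.55) and in A/J minus BALB/c (-0.495 to -0.28), as in A/J minus C57BL/6J (0.01 to 0.18). The lowest of the last, without C57BL/6J 3, was the same as the median over all tested genes (0.008). Over the omissions the number called ran from 0 to 4 in A/J minus C57BL/6J, 6 to 20 in BALB/c minus C57BL/6J, 2 to 22 in A/J minus BALB/c and 5 to 35 across the strains. In A/J minus C57BL/6J the count was 0 with scaling to the sum without crystallins, with the GC correction, with only 2 strains fitted, and without A/J 1 and A/J 2, where the median was -0.07 and A/J minus BALB/c gave 2. Without A/J 3 and C57BL/6J 3 the counts were 16, 35, 50 and 55 in the order above, when 39.5%, 14.6%, 60.2% and 61.7% of all genes were called, and Ndufs1 reversed in A/J minus C57BL/6J (0.51). The length correction gave 6, 4 and 5 in the last 3, with medians of 0.18 and -0.049. Leaving out genes with shared sequence gave 7, 6 and 8, and 2-strain fits 20 in A/J minus BALB/c. Summed over all its subunits, the BALB/c to C57BL/6J ratio of complex III was 1.24, and 1.10 on the deposited scale. The cause was not tested. Deviations of libraries with the same replicate number correlated at 0.337 to 0.537 for replicate 1 and 0.092 to 0.472 for replicate 3. For replicate 2 the correlations ran from -0.515 to 0.021. Whether libraries of the same number share a batch was not tested. With the replicate block the counts were 0, 15, 12 and 16. Of the single-gene values, 2775 kept direction and side of the threshold, 156 lost and 72 gained a call, 51 moved and 1 reversed. Depth is unknown, so no limit of detection can be given.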
